A study of Mus musculus with 3 samples.

Results

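The genes described are 10 members of the basement membrane, of 22954 genes listed in each library: the collagen IV chains Col4a1, Col4a2, Col4a3 and Col4a4, the laminin chains Lama3, Lamb2 and Lamc1, and Nid1, Hspg2 and Sparc. They were taken by name and read in all cells of 3 single-cell lung libraries, by cell type and library. The libraries came from 1 female C57BL6/J mouse each, all 5 months after 13 Gy to the whole thorax, by CONV (0.4 Gy/s), by CONV with AsiDNA (CONV AsiDNA) or by FLASH (above 100 Gy/s). The mice were 8 to 9 weeks old when the experiment began, and AsiDNA, a cholesterol-coupled oligonucleotide that mimics a DNA double-strand break, was injected intraperitoneally at 100 mg/kg on the 2 days before and at 200 mg/kg on the day of irradiation. Unirradiated lungs were not analysed here, so every level below is that of an irradiated lung, and with 1 mouse per condition a difference between libraries has no replicate check and no p-value.

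The CONV, CONV AsiDNA and FLASH libraries held 6372, 6983 and 6267 cells with a median of 3450, 3678 and 3621 adjusted counts per cell. An adjusted count is the whole number recovered from the deposited log value. Because these numbers had been adjusted before deposit, a gene at 0 is described as listed at 0. A level is the sum of a gene over the cells of a class, scaled to a class total of 1000000 adjusted counts (adjusted CPM). Between 9 and 17 cell barcodes were shared by each pair of libraries. The labels give a single date for the libraries, so no batch could be separated.

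Cells were gated by markers into alveolar type 1 (AT1) cells (84, 57 and 99 cells in CONV, CONV AsiDNA and FLASH), endothelial cells (369, 453 and 481), fibroblasts (64, 116 and 168) and mural cells (50, 65 and 47). Cells were gated on markers of their class, so the shares of defining markers given next describe the gate. They are no separate check of cell identity. The AT1 gene Ager was above 0 in 98.8% to 100% of AT1 cells, the endothelial cadherin gene Cdh5 in 97.9% to 98.4% of endothelial cells, the collagen I gene Col1a2 in 97.6% to 100% of fibroblasts and the smooth muscle myosin gene Myh11 in 97.9% to 100% of mural cells. The mural gate was almost entirely smooth muscle (49, 64 and 47 cells by the smooth muscle list), no cell passed the pericyte list, and the values called mural below are therefore those of smooth muscle. The pan-leukocyte gene Ptprc was above 0 in at most 3.08% of endothelial, fibroblast and mural cells but in 13.1%, 10.5% and 22.2% of AT1 cells.

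The basement membrane is the thin sheet of matrix that underlies epithelium and endothelium and wraps muscle cells. Collagen IV trimers of the Col4a1 and Col4a2 chains form its scaffold in nearly every tissue, whereas trimers of the Col4a3, Col4a4 and Col4a5 chains form a second network found in the glomerulus and the lung alveolus. Laminins are trimers of an alpha, a beta and a gamma chain that bind cell-surface integrins, nidogen (Nid1) links laminin to collagen IV, perlecan (Hspg2) is a heparan sulphate proteoglycan, and Sparc is a secreted collagen-binding glycoprotein that acts in collagen assembly. In the alveolus the sheets under the AT1 cell and under the capillary endothelium are largely fused, which makes this matrix part of the gas exchange barrier.

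The collagen IV members lie in head-to-head pairs. In the mouse build GRCm38 with GENCODE M21, Col4a1 (chr8:11198423-11312826, minus strand) and Col4a2 (chr8:11312805-11449287, plus strand) overlapped by 22 bases at their starts. Col4a4 (chr1:82448423-82586849, minus strand) and Col4a3 (chr1:82586921-82722059, plus strand) were separated by 71 bases. The other members were single genes, among them chr9:108479736-108490530 (Lamb2, plus), chr1:153218922-153332786 (Lamc1, minus), chr13:13437551-13512269 (Nid1, plus), chr4:137468769-137570630 (Hspg2, plus) and chr11:55394500-55423183 (Sparc, minus). The position of Lama3 is given with its values.

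The upstream stretches are shown for the members whose pattern across cell types the results turn on. Col4a4 and Col4a3 were the pair seen almost only in AT1 cells among the 4 classes. Hspg2 differed between libraries in its order between AT1 cells and all gated endothelial cells, and Nid1 was listed at 0 in AT1 cells. The stretches are the whole space between Col4a4 and Col4a3 and the bases before Hspg2 and before Nid1. They were read from RefSeq on GRCm38.p6, 5′ to 3′ toward the gene named first, and capitals mark the GC box GGGCGG as a match on either strand.
Col4a4 to Col4a3, chr1:82586850-82586920, minus strand: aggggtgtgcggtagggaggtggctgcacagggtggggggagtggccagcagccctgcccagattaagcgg
Hspg2, chr4:137468553-137468768, plus strand: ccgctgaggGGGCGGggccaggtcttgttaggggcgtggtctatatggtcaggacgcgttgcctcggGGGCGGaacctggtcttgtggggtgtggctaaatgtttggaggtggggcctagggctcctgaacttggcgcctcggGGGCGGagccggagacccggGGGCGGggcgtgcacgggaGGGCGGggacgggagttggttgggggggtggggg
Nid1, chr13:13437352-13437550, plus strand: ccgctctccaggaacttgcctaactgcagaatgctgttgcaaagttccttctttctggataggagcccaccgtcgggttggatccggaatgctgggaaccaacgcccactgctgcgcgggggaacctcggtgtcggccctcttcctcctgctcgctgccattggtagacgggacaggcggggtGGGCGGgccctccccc

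The GC box was found 5 times before Hspg2, once before Nid1 and not in the 71 bases between Col4a4 and Col4a3, of which 69.0% were G or C. Of the members, 7 had a promoter of 300 bases in the RefSeq table (all but Col4a3, Lama3 and Lamc1), and 4 of these held the GC box on either strand (1 match in Col4a1, 3 in Col4a2, 5 in Hspg2 and 1 in Nid1), against 35.7% of 32851 promoters of that length. The motif TATAAA was found in none of the 7 and in 13.6% of all promoters. The G and C share of the 7 ran from 44.0% (Lamb2) to 74.0% (Col4a1) beside a median of 52.7%. These matches describe letters in a window and no binding.

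The first comparison asks which cells carry each member. Among the 4 classes compared, AT1 cells held the Col4a3 and Col4a4 transcripts nearly alone and most of the Lama3 transcripts. By level in each library, endothelial cells led for Col4a1, fibroblasts for Lamc1 and Nid1, and smooth muscle for Lamb2. Of the classes below them, AT1 cells for Col4a1 and endothelial cells for Nid1 and Lamb2 were not called lower in the test below. Nid1 was listed at 0 in AT1 cells of every library. Differences between classes were tested with limma on log2(adjusted CPM + 10) of the 12 class sums with library as a term. A call needed a Benjamini-Hochberg adjusted p of at most 0.05 and a 2-fold difference. Each class is then measured in 3 mice that had different treatments. The p-values compare the class difference with a single residual spread per gene, pooled over the 4 classes and moderated by the trend over all genes. They do not measure how far that class difference itself varied over the mice. A class listed at 0 in every mouse enters the pooled spread as well. The share of all 12221 genes called was 27.5% for AT1 against endothelial cells, 27.5% for AT1 cells against fibroblasts, 27.8% for AT1 against mural cells, 25.3% for endothelial cells against fibroblasts, 25.4% for endothelial against mural cells and 11.3% for fibroblasts against mural cells. In the same order, 6, 6, 8, 4, 3 and 4 of the 10 members were called. With each library left out in turn, these counts ran from 4 to 6, 5 to 7, 6 to 8, 2 to 4, 3 to 4 and 1 to 4. That of endothelial cells against fibroblasts was 2 without CONV AsiDNA. That of fibroblasts against mural cells was 1 without CONV AsiDNA and 1 without FLASH.

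**Figure D1:**
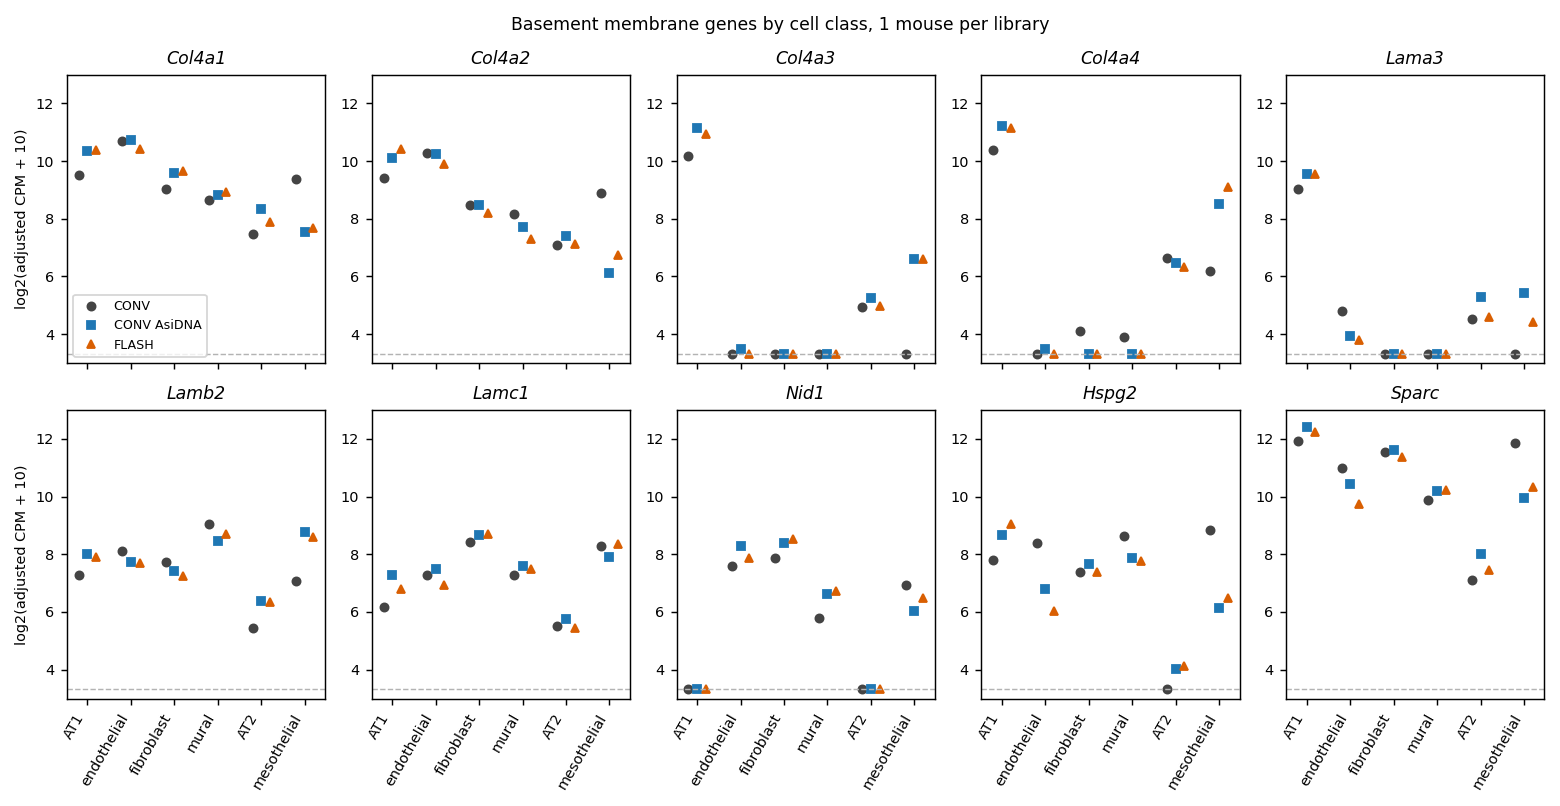
Level of each member as log2(adjusted CPM + 10) in 6 gated classes, with 1 point per library (circle CONV, square CONV AsiDNA, triangle FLASH) and a dashed line where a gene is listed at 0. Col4a3, Col4a4 and Lama3 stand high in AT1 cells and lie at or near the line in endothelial, fibroblast and mural cells, and Nid1 lies on the line in AT1 and AT2 cells.

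Col4a1 encodes the more abundant chain of the common collagen IV trimer. Its level in CONV, CONV AsiDNA and FLASH was 1660, 1705 and 1371 adjusted CPM in endothelial cells, 716, 1303 and 1312 in AT1 cells, 513, 758 and 802 in fibroblasts and 394, 445 and 473 in mural cells. Endothelial cells stood above AT1 cells in every library (mean 1579 ± 181 against 1110 ± 342, SD, n = 3), without overlap of their ranges, but the log2 difference of 0.55 in favour of endothelial cells did not pass limma (AT1 minus endothelial -0.55, SE 0.26, adjusted p = 0.125). Endothelial cells exceeded fibroblasts (log2 difference 1.20, SE 0.26, adjusted p = 0.00353) and mural cells (1.83, SE 0.26, adjusted p = 0.00016), and AT1 cells exceeded mural cells (1.27, SE 0.26, adjusted p = 0.00223). AT1 cells and fibroblasts overlapped (0.65, SE 0.26, adjusted p = 0.0757). The call over fibroblasts was lost without CONV AsiDNA (adjusted p = 0.0776) and fell under 2-fold without CONV (log2 difference 0.96), with adjusted p from 0.00253 to 0.0776 over 13 alternatives. The call of AT1 over mural cells was lost without CONV AsiDNA (0.0855) or FLASH (0.051), with a range of 0.0015 to 0.0855.

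Col4a2, the partner chain, was likewise higher in endothelial and AT1 cells than in fibroblasts and mural cells. It reached 1244, 1191 and 946 adjusted CPM in endothelial cells and 677, 1088 and 1346 in AT1 cells, which overlapped (AT1 minus endothelial -0.16, SE 0.30, limma adjusted p = 0.724). It was lower in fibroblasts (348, 348 and 283) and in mural cells (278, 199 and 149). Both AT1 and endothelial cells exceeded fibroblasts, by 1.59 (SE 0.30, adjusted p = 0.00139) and 1.75 (SE 0.30, adjusted p = 0.000726) on the log2 scale. They exceeded mural cells by 2.25 (SE 0.30, adjusted p = 1e-04) and 2.41 (SE 0.30, adjusted p = 5.93e-05). Of these, AT1 over fibroblasts was lost without CONV AsiDNA (adjusted p = 0.0562, range 0.000837 to 0.0562 over 13 alternatives).

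Col4a3 and Col4a4, chains of the alveolar and glomerular network, were AT1 genes. Col4a3 stood at 1143, 2249 and 1961 adjusted CPM in AT1 cells and was above 0 in 71.4%, 68.4% and 78.8% of them. It was listed at 0 in fibroblasts and mural cells of all libraries and above 0 in 1 of 1303 endothelial cells. Col4a4 stood at 1310, 2396 and 2283 adjusted CPM in AT1 cells and was above 0 in 67.9%, 77.2% and 83.8% of them. In the other 3 classes compared it was above 0 in 1 of the endothelial cells, 2 fibroblasts and 1 mural cell, while AT2 and mesothelial cells, described below, also carried it. Both genes were called higher in AT1 than in endothelial, fibroblast and mural cells by limma (the largest of the 6 adjusted p-values was 1.19e-08). No fold is given, since a fitted difference from a class listed at or near 0 depends on the added 10. The third chain of that network, Col4a5, was also found in AT1 cells (194, 476 and 500 adjusted CPM), but in fibroblasts (111, 115 and 109) and mural cells (177, 176 and 181) as well.

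Among the laminin chains, Lama3 (chr18:12333819-12583013, plus strand), the alpha chain of epithelial laminins, followed Col4a3. It stood at 509, 743 and 750 adjusted CPM in AT1 cells, at 17.7, 5.22 and 3.89 in endothelial cells, and was listed at 0 in fibroblasts and mural cells. AT1 cells were called higher than each of the other classes by limma (largest adjusted p = 1.05e-07). Lamb3, a beta chain of epithelial laminins, was an AT1 gene as well, at 385, 471 and 378 adjusted CPM, and was listed at 0 in the other 3 classes.

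Lamb2, a beta chain of muscle, vessel and glomerular laminins, was highest in mural cells (521, 345 and 404 adjusted CPM), and lay at 268, 201 and 198 in endothelial cells, 144, 246 and 231 in AT1 cells and 204, 160 and 144 in fibroblasts. The ranges of the last 3 classes overlapped each other, and only AT1 cells (log2 difference -1.01, SE 0.27, limma adjusted p = 0.0112) and fibroblasts (-1.27, SE 0.27, adjusted p = 0.00651) were called lower than mural cells. Endothelial cells lay below mural cells by less than 2-fold (-0.89, SE 0.27, adjusted p = 0.0231). The AT1 call was lost without FLASH (0.0698) and fell to a log2 difference of -0.63 without CONV, with adjusted p from 0.0064 to 0.32 over 13 alternatives. The fibroblast call was lost without CONV AsiDNA (0.0834) or FLASH (0.126), with a range of 0.00393 to 0.193.

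Lamc1, the gamma chain of most laminins, was highest in fibroblasts at 333, 400 and 403 adjusted CPM. It lay at 147, 184 and 170 in mural cells, 145, 169 and 112 in endothelial cells and 62.2, 146 and 99.9 in AT1 cells. Fibroblasts exceeded AT1 cells by 1.85 on the log2 scale (AT1 minus fibroblast -1.85, SE 0.24, limma adjusted p = 6.5e-05), endothelial cells by 1.37 (endothelial minus fibroblast -1.37, SE 0.24, adjusted p = 0.000804) and mural cells by 1.14 (SE 0.24, adjusted p = 0.00643). The last of these was lost without CONV AsiDNA (0.0909) or FLASH (0.0963), with a range of 0.00223 to 0.0963 over 13 alternatives.

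Nid1 marked the mesenchyme and endothelium. It stood at 226, 330 and 362 adjusted CPM in fibroblasts and 184, 301 and 225 in endothelial cells, which overlapped (endothelial minus fibroblast -0.36, SE 0.24, limma adjusted p = 0.3). In mural cells it was at 45.5, 88.2 and 95.8, below fibroblasts by 1.90 (SE 0.24, adjusted p = 0.000157) and below endothelial cells by 1.54 (SE 0.24, adjusted p = 0.000333) on the log2 scale. It was above 0 in none of the 240 AT1 cells and none of the AT2 cells, and AT1 cells were called lower than each of the other classes (largest adjusted p = 9.97e-07). These 5 calls held when each library was left out in turn.

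Hspg2 had no fixed order of cell types. It stood at 214, 398 and 518 adjusted CPM in AT1 cells, 384, 222 and 207 in mural cells, 158, 194 and 158 in fibroblasts and 327, 102 and 55.6 in endothelial cells. In CONV the endothelial level was above that of AT1 cells, while in CONV AsiDNA and FLASH it was below. Outside a cluster mostly of CONV cells, described below, endothelial cells stood at 112, 54.2 and 54.0. These values lay below those of AT1, mural and fibroblast cells in each library. Leaving that cluster out takes away cells high in Hspg2 by construction. Only AT1 against endothelial cells was called (log2 difference 1.43, SE 0.49, limma adjusted p = 0.0416), and this call was lost without CONV AsiDNA (0.32) or FLASH (0.472), with a range of 0.0017 to 0.472 over 13 alternatives. Without CONV, 4 further contrasts were called: AT1 over fibroblasts (1.33, adjusted p = 0.0174, range 0.0174 to 0.428) and over mural cells (1.05, adjusted p = 0.0378, range 0.0378 to 1), and endothelial cells below fibroblasts (-1.11, adjusted p = 0.0333, range 0.0333 to 0.965) and below mural cells (-1.39, adjusted p = 0.0148, range 0.0148 to 0.5).

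Sparc was highest in AT1 cells (3885, 5409 and 4769 adjusted CPM), followed by fibroblasts (2968, 3128 and 2662). Endothelial cells (2029, 1365 and 845) and mural cells (940, 1154 and 1192) lay lower and overlapped (endothelial minus mural 0.28, SE 0.33, limma adjusted p = 0.579). The AT1 and fibroblast ranges did not overlap, but the log2 difference of 0.67 (SE 0.33) did not pass limma (adjusted p = 0.153). AT1 cells exceeded mural cells by 2.08 (SE 0.33, adjusted p = 0.000418), a call that held without each library. AT1 cells also exceeded endothelial cells by 1.80 (SE 0.33, adjusted p = 0.00121), and fibroblasts exceeded endothelial cells (endothelial minus fibroblast -1.13, SE 0.33, adjusted p = 0.0227) and mural cells (1.41, SE 0.33, adjusted p = 0.0137). Without CONV AsiDNA or without FLASH these 3 calls were lost, at adjusted p = 0.068 and 0.0746, 0.224 and 0.273, and 0.231 and 0.131. Over 13 alternatives each, their adjusted p ran from 0.000652 to 0.0746, from 0.00488 to 0.273 and from 0.0104 to 0.27.

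Over the 10 members, the median log2 difference was 0.65 for AT1 against endothelial cells, 0.85 for AT1 cells against fibroblasts and 1.68 for AT1 against mural cells, where the medians over all genes were -0.29, -0.10 and -0.08. For endothelial cells against fibroblasts and mural cells it was -0.08 and 0.17, beside 0.17 and 0.17 over all genes. For fibroblasts against mural cells it was 0.34, beside 0.00 over all genes. Members listed at or near 0 in 1 of the classes enter these medians at a fitted value that the added 10 sets.

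Levels per class leave out how many cells of a class a suspension held, so the share of each gene's adjusted counts found in the cells of each gate was also read. Endothelial cells, the most numerous of the 4 classes, held 73.1%, 68.8% and 61.1% of all Col4a1 counts in CONV, CONV AsiDNA and FLASH and 73.4%, 73.1% and 63.3% of Col4a2. They also held 63.1%, 67.4% and 55.1% of Nid1. AT1 cells, at 57 to 99 cells a library, held 81.0%, 86.5% and 90.9% of Col4a3 and 65.9%, 69.2% and 74.3% of Col4a4. They held 62.7%, 68.6% and 86.6% of Lama3, of which endothelial cells held 11.5%, 4.35% and 2.53%. The remainder of Col4a4 was largely in AT2 cells (24.9%, 18.6% and 13.2%) and mesothelial cells (0.978%, 9.82% and 9.55%).

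The share from endothelial cells moved most for Hspg2 and Sparc. For Hspg2 it was 63.5%, 39.9% and 21.9%, while that from AT1 cells was 7.88%, 17.3% and 36.3%. For Sparc it was 48.2%, 39.8% and 25.8%, while that from fibroblasts was 14.5%, 26.2% and 31.1%. The number of cells passing each gate differed between libraries, 64 fibroblasts in CONV against 168 in FLASH. These shares carry both the cell numbers and the level per cell. They also carry an endothelial cluster mostly of CONV cells, described below. In CONV its endothelial cells held 343 of the 698 Hspg2 counts and 1469 of the 5711 Sparc counts. Other endothelial cells held 100, 89 and 97 Hspg2 counts and 1283, 1788 and 1516 Sparc counts in CONV, CONV AsiDNA and FLASH.

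**Figure D2:**
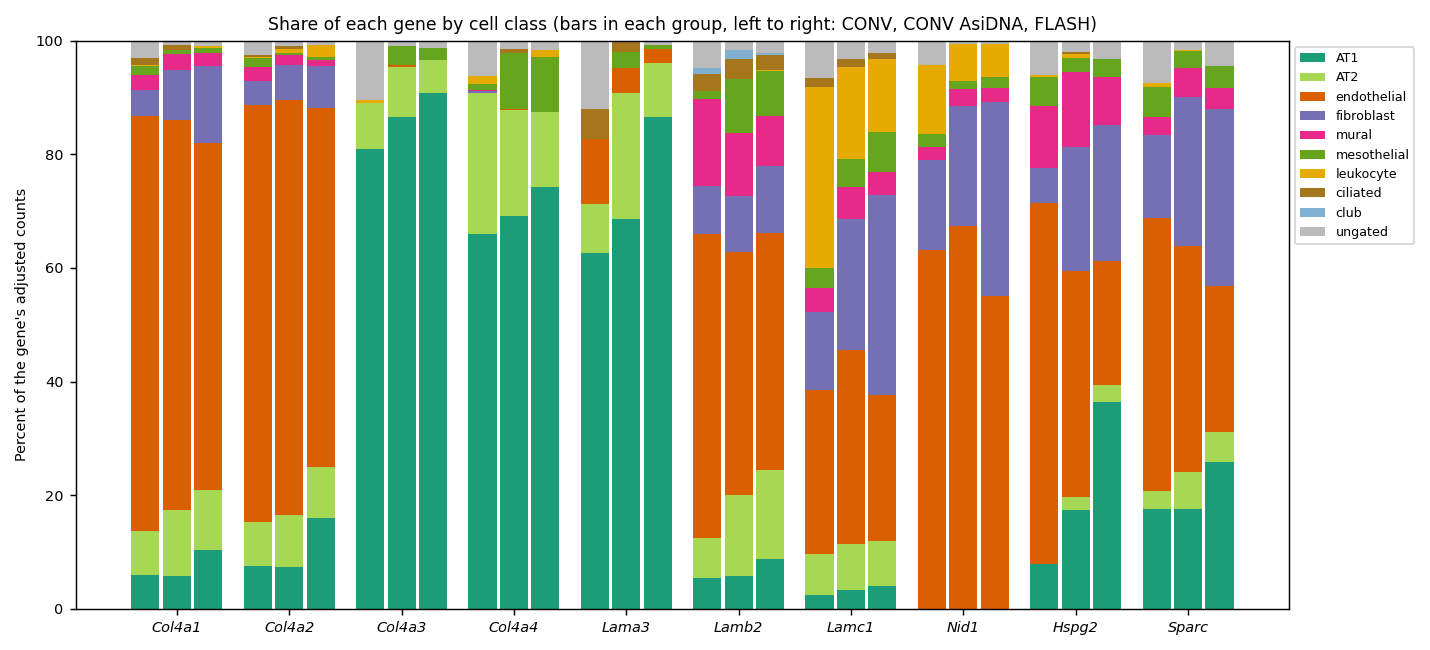
Share in percent of each member's adjusted counts that lay in the cells of each gated class, as stacked bars with 3 bars per gene in the order CONV, CONV AsiDNA and FLASH. The AT1 part fills most of the Col4a3, Col4a4 and Lama3 bars, and the endothelial part of Hspg2 goes from 63.5% in CONV to 21.9% in FLASH. In CONV that part includes 343 of the 698 Hspg2 counts from a cluster mostly of CONV cells.

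Endothelial and AT1 cells that carried Col4a1 or Col4a2 mostly carried the partner chain, as did AT1 cells with Col4a3 or Col4a4. Col4a1 and Col4a2 were both above 0 in 81.3%, 78.6% and 76.9% of endothelial cells and in 50.0%, 64.9% and 71.7% of AT1 cells. Counted with or without its partner, Col4a1 was above 0 in 87.8%, 89.8% and 87.5% of endothelial cells. For Col4a2 this share was 86.7%, 82.3% and 81.9%. In AT1 cells these shares were 70.2%, 75.4% and 76.8% for Col4a1 and 60.7%, 73.7% and 78.8% for Col4a2. The pair was found in 54.7%, 55.2% and 55.4% of fibroblasts and in 46.0%, 35.4% and 31.9% of mural cells. Col4a2 was above 0 in 60.9%, 61.2% and 60.1% of fibroblasts, so most fibroblasts with Col4a2 carried Col4a1 too. Genes found in this many cells of a class often occur together without any link. Whether any pair occurred together more often than its single shares give was not tested. Over cells, the correlation of their log values was 0.72, 0.74 and 0.65 in endothelial cells, a description over cells of 1 library each that share depth. Col4a3 and Col4a4 were both above 0 in 57.1%, 66.7% and 73.7% of AT1 cells (r = 0.61, 0.86 and 0.79 over 84, 57 and 99 cells).

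The ratio of summed Col4a1 to Col4a2 counts was close between libraries in endothelial cells (1.33, 1.43 and 1.45) and AT1 cells (1.06, 1.20 and 0.974). It was wider in fibroblasts (1.47, 2.18 and 2.84) and in mural cells (1.42, 2.23 and 3.18), lowest in CONV in both. The mural values rest on 50, 65 and 47 cells, of which 58.0%, 52.3% and 36.2% had Col4a2 above 0. This ratio depends on how well each transcript is captured, so only its differences between classes and libraries can be read. An AT1 cell had a median of 5, 7 and 7 of the 10 members above 0, an endothelial cell 4 in each library, a fibroblast 5 in each, and a mural cell 5, 4 and 4.

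The second comparison asks how the members differed between CONV, CONV AsiDNA and FLASH within a cell type. The log2 ratio of (adjusted CPM + 10) was taken for genes with at least 20 adjusted counts in the class, and a ratio of 1 or more in size counts as past 2-fold. There is no test. The main patterns were lower values of all measured members in the AT1 cells of CONV, and higher Hspg2 and Sparc in the endothelial cells of CONV.

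**Figure D3:**
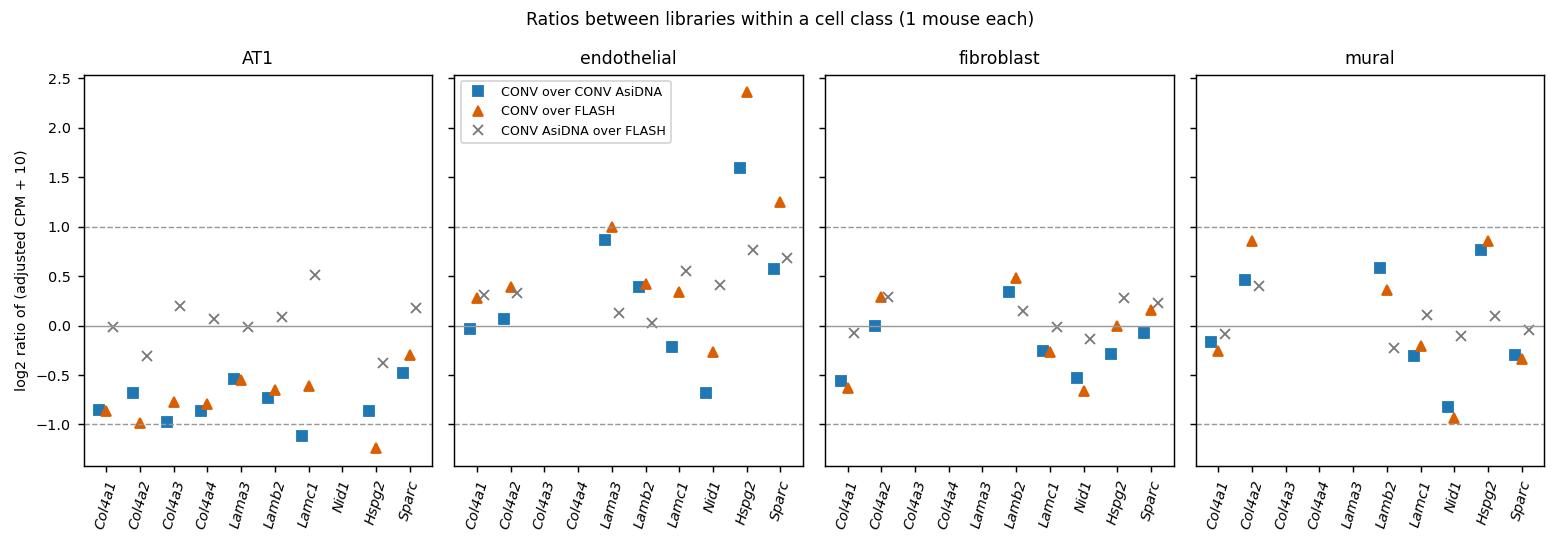
The log2 ratio of (adjusted CPM + 10) of each member between libraries in AT1, endothelial, fibroblast and mural cells, with 1 mark for each of the 3 library pairs and dashed lines at 2-fold. All AT1 marks of CONV over either other library lie below 0, and Hspg2 in endothelial cells lies at 1.59 and 2.36.

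In AT1 cells, 9 members had enough counts, and each of the 9 was lower in CONV than in CONV AsiDNA and FLASH. Past 2-fold were 1 of 9 members in CONV over CONV AsiDNA, where 20.1% of 5073 genes were, 1 of 9 in CONV over FLASH, where 20.1% were, and 0 of 9 in CONV AsiDNA over FLASH, where 13.8% were. The counts past 2-fold are thus near or under the share over all genes, while the median ratio of the members was -0.86, -0.77 and 0.07 beside -0.04, 0.08 and 0.12 over all genes. For Col4a3 the ratio of CONV to CONV AsiDNA and to FLASH was -0.97 and -0.77, for Col4a4 -0.87 and -0.80, for Col4a1 -0.86 and -0.87, and for Col4a2 -0.68 and -0.98. Lamc1 was past 2-fold against CONV AsiDNA (-1.12, from 62.2 to 146 adjusted CPM, 16 and 28 counts in all). Hspg2 was past 2-fold against FLASH (-1.24, from 214 to 518 adjusted CPM). The smallest ratios were those of Sparc (-0.48 and -0.30) and Lama3 (-0.54 and -0.55).

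The share of AT1 cells above 0 for Hspg2 was 33.3%, 56.1% and 70.7% for CONV, CONV AsiDNA and FLASH, with 95% Clopper-Pearson intervals of 23.4% to 44.5%, 42.4% to 69.3% and 60.7% to 79.4%. With cells thinned to 1500 adjusted counts it was 20.2%, 28.1% and 50.5%. No AT1 cell was shallower than this depth. In leukocytes Hspg2 was above 0 in at most 0.0221% of cells. These intervals cover the sampling of cells of 1 mouse only.

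The AT1 gate of CONV differed from the others in further measures. The summed level of the 8 AT1 markers was 25490, 41902 and 41438 adjusted CPM for CONV, CONV AsiDNA and FLASH, that of the 8 AT2 markers was 879, 5.23 and 28.1, and that of the surfactant gene Sftpd, which is not among these markers, was 1443, 0 and 0 (above 0 in 26.2% of the CONV cells). The summed level of 98 ribosomal protein genes was 51576, 10091 and 16904. The median depth of the gated AT1 cells was 2756, 3306 and 3688 adjusted counts. In the 47, 56 and 90 AT1 cells with no AT2 marker above 0, the AT1 marker sum was 29276, 42046 and 41925 and the ribosomal protein sum 45856, 9581 and 13339, so both differences of CONV were still present, and 4 of the 47 CONV cells still carried Sftpd. In these cells all 9 members were lower in CONV than in both others, with Col4a1 at 809, 1304 and 1352 adjusted CPM (ratios -0.68 and -0.73) and Col4a3 at 1447, 2270 and 2050 (-0.65 and -0.50). Hspg2 was there no longer past 2-fold against FLASH (295, 401 and 524 adjusted CPM, ratio to FLASH -0.81), and Lamc1 (-1.28) and Lamb2 (-1.03) were past 2-fold against CONV AsiDNA. In the 43, 56 and 90 cells that carried no Sftpd either, 8 of the 9 members were still lower in CONV than in both others, with Col4a1 at 870, 1304 and 1352 (-0.58 and -0.63) and Col4a3 at 1535, 2270 and 2050 (-0.56 and -0.41). Sparc was not, at 4885, 5406 and 4770 (-0.15 and 0.03), and Lama3 was close between libraries at 703, 728 and 779. No doublet caller was run on these cells, and the part of the marker and ribosomal differences in the result was not tested.

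In endothelial cells, 8 members had enough counts. Past 2-fold were 1 of 8 in CONV over CONV AsiDNA (7.21% of 10340 genes), 2 of 8 in CONV over FLASH (7.58%) and 0 of 8 in CONV AsiDNA over FLASH (1.27%). Hspg2 was at 327, 102 and 55.6 adjusted CPM for the libraries in that order (ratios 1.59, 2.36 and, between the last pair, 0.77). Sparc was at 2029, 1365 and 845 (0.57, 1.25 and 0.69). Both genes thus stood in the order CONV, CONV AsiDNA, FLASH, with CONV highest. Lama3 lay just under 2-fold for CONV over FLASH (17.7 against 3.89 adjusted CPM, 24 and 7 counts). Nid1 was lowest in CONV (ratios -0.68 and -0.27), and the ratios of Col4a1, Col4a2, Lamb2 and Lamc1 were smaller than 0.6 in size for all 3 pairs.

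The share of endothelial cells above 0 for Hspg2 was 43.4% for CONV (38.2% to 48.6%), 14.1% for CONV AsiDNA (11.1% to 17.7%) and 11.02% for FLASH (8.36% to 14.2%), and 29.8%, 6.84% and 5.20% with cells thinned to 1500 adjusted counts. For Sparc it was 88.9%, 72.0% and 63.4%, and 78.6%, 58.1% and 50.9% after thinning. In leukocytes Sparc was above 0 in at most 0.111% of cells. The endothelial marker sum was 14985, 19693 and 20184 adjusted CPM, lowest in CONV, and the ribosomal protein sum was 76078, 36681 and 43556. Their part in the Hspg2 and Sparc differences was not tested.

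The Hspg2 and Sparc ratios were smaller without 1 group of endothelial cells. Clustering of all cells gave a cluster of 156 cells, 132 of them from CONV, 23 from CONV AsiDNA and 1 from FLASH, whose leading genes included Rgcc, Fabp4, Rsad2, S100a6, Serpine2, Sele, Hspg2, Il6 and Fam167b. Hspg2 is among these, so its level there describes the cluster, and leaving the cluster out takes away cells high in Hspg2 by construction. Of its cells, 128, 22 and 1 passed the endothelial gate, most of them as general capillary cells. In these cells Hspg2 stood at 737 (CONV) and 1064 (CONV AsiDNA) adjusted CPM, against 112, 54.2 and 54.0 in the other endothelial cells of CONV, CONV AsiDNA and FLASH. For Sparc the values were 3155 and 6976 in the cluster against 1441, 1089 and 844 outside it. Without the cluster, the ratio of CONV to CONV AsiDNA and to FLASH was 0.93 and 0.93 for Hspg2 and 0.40 and 0.76 for Sparc, and 0 of 8 members were past 2-fold (5.65% and 5.91% of all genes). A cluster mostly of 1 library may be that library and not a kind of cell.

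Across endothelial sub-lists, Hspg2 was 433, 137 and 25.8 adjusted CPM in general capillary cells (232, 205 and 213 cells), with ratios of 1.59, 3.63 and 2.04. Of these cells, 109, 19 and 1 lay in the cluster just described. In aerocytes, the capillary cells of the gas exchange surface, it was 36.1, 9.23 and 0 (67, 171 and 181 cells). In large vessel cells it was 394, 246 and 308 (37, 39 and 52 cells), where CONV and FLASH lay closer together than in the capillary lists. Sparc stood in the same order of libraries in all of these lists, with 2468, 2066 and 1215 in general capillary cells, 1160, 563 and 372 in aerocytes and 1542, 1012 and 867 in large vessel cells. Col4a1 was lower in large vessel cells (512, 443 and 643) than in aerocytes (1858, 1851 and 1666) and general capillary cells (1908, 1914 and 1428). Its ratios between libraries stayed under 2-fold in each list. Nid1 was past 2-fold lower in the large vessel cells of CONV, at 96.8, 258 and 228 (ratios -1.32 and -1.16, on 14, 43 and 49 counts). Of 4234 genes there, 17.2% and 16.8% were past 2-fold. Sparc was past 2-fold higher in the aerocytes of CONV (1.03 and 1.61, with 12.6% and 12.8% of 7364 genes). In general capillary cells Sparc was so against FLASH (1.02) and Lama3 against both (1.12 and 1.27). Of 9064 genes there, 9.02%, 10.1% and 2.88% were past 2-fold, in the order of the Hspg2 ratios.

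**Figure D4:**
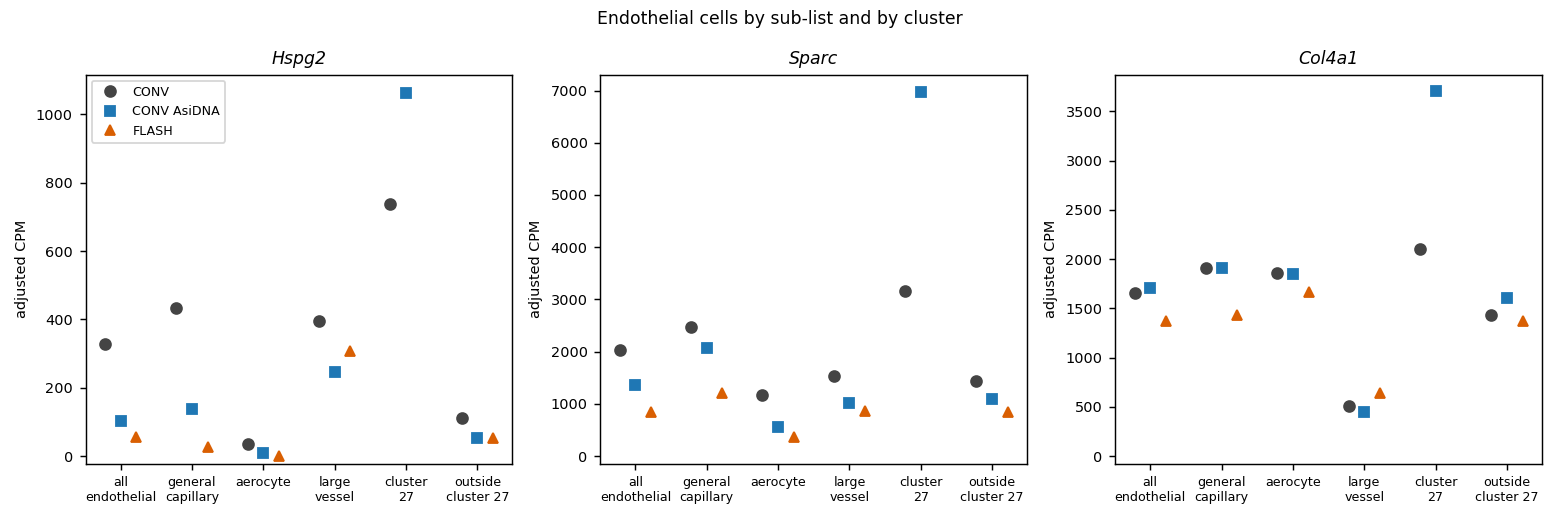
Adjusted CPM of Hspg2, Sparc and Col4a1 in all endothelial cells, in the general capillary, aerocyte and large vessel sub-lists, and in and outside the cluster that is mostly of CONV cells, with 1 point per library. The FLASH value in the cluster is not drawn because it held 1 cell, and Hspg2 outside the cluster is at 112, 54.2 and 54.0.

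In fibroblasts as a whole none of the 7 measured members was past 2-fold in any pair, where 10.7%, 11.8% and 5.41% of 7461 genes were. The largest ratios were those of Nid1 (226, 330 and 362 adjusted CPM, -0.53 and -0.66 for CONV over CONV AsiDNA and FLASH) and Col4a1 (513, 758 and 802, -0.56 and -0.64). Lamb2 went the other way (204, 160 and 144, 0.34 and 0.48). Sparc was above 0 in 98.8% to 100% of fibroblasts and spanned 2662 to 3128 adjusted CPM. The mix of fibroblasts differed between libraries, with 34, 61 and 125 alveolar and 24, 42 and 34 adventitial cells by their sub-lists. In adventitial fibroblasts Col4a1 stood at 329, 693 and 760 adjusted CPM and was past 2-fold for CONV over both CONV AsiDNA (-1.05) and FLASH (-1.18). Lamc1 there stood at 132, 414 and 227, with ratios of -1.58 and -0.74 and 14, 74 and 32 counts. In alveolar fibroblasts no member was past 2-fold, with Col4a1 at 600.2, 876 and 825 and Lamc1 at 490, 396 and 451. Of all genes, 17.0% and 17.2% were past 2-fold for these pairs in adventitial fibroblasts, and 17.4% and 16.6% in alveolar ones.

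In mural cells 0 of 7 members were past 2-fold, where 13.0%, 16.3% and 9.26% of 4860 genes were. CONV was highest for Hspg2 (384, 222 and 207 adjusted CPM, 0.76 and 0.86), Col4a2 (278, 199 and 149, 0.46 and 0.86) and Lamb2 (521, 345 and 404, 0.58 and 0.36). It was lowest for Nid1 (45.5, 88.2 and 95.8, -0.82 and -0.93) and, by smaller ratios, for Col4a1, Lamc1 and Sparc. With 47 to 65 cells a library, Nid1 rested on 9, 23 and 18 counts.

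Outside the 4 classes, members were also found in AT2 and mesothelial cells. AT2 cells, the surfactant-making epithelium, carried Col4a1 at 168, 312 and 229 adjusted CPM, Col4a4 at 90.3, 78.0 and 70.6, Col4a3 at 20.6, 27.9 and 21.2 and Sparc at 129, 247 and 166. Mesothelial cells, which line the pleura, were few (16, 43 and 38). Their Col4a4 was 62.9, 356 and 541 adjusted CPM, above that of AT2 cells in CONV AsiDNA and FLASH, while their Sparc was 3726, 986 and 1294 and their Hspg2 453, 60.2 and 80.5, highest in CONV. A mesothelial cell had a median of 6, 5 and 5 members above 0. Leukocytes, 4350 to 4923 cells a library, had Lamc1 at 6.50 to 13.3 adjusted CPM. By their number they still held 31.9%, 16.3% and 12.8% of the Lamc1 counts of CONV, CONV AsiDNA and FLASH. Lamc1 was above 0 in 4.56% (3.97% to 5.21%), 2.66% (2.23% to 3.15%) and 2.16% (1.75% to 2.64%) of leukocytes, unlike Lama3, which was above 0 in none of them.

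The other genes of the basement membrane, a list of 48 chains, linkers, receptors, assembly enzymes and turnover genes, were split between classes. In AT1 against endothelial cells 11 were called higher and 19 lower, against fibroblasts 13 and 21, and against mural cells 13 and 17 (62.5%, 70.8% and 62.5% of the 48 called, beside 27.5%, 27.5% and 27.8% of all genes). In endothelial cells 13 were called higher and 19 lower than in fibroblasts, and 16 and 15 against mural cells (66.7% and 64.6%, beside 25.3% and 25.4%). In fibroblasts 14 were higher and 6 lower than in mural cells (41.7%, beside 11.3%).

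The farthest of these genes mostly stood at or near 0 in 1 of the classes, for which levels are given and no fold. Npnt, the integrin ligand nephronectin, was at 2058, 2190 and 3270 adjusted CPM in fibroblasts, 513, 1219 and 1118 in AT1 cells, 465, 483 and 516 in mural cells and 34.7, 7.55 and 0 in endothelial cells (limma adjusted p = 2.71e-06 for AT1, 4.13e-07 for fibroblasts and 1.34e-05 for mural against endothelial cells). Sparcl1, a matrix glycoprotein related to Sparc, was listed at 0 in AT1 cells and was at 2516, 3575 and 2631 in fibroblasts and 3290, 1963 and 2256 in mural cells (adjusted p = 1.44e-06 and 1.97e-06). The matrix protease Adamts1 was also listed at 0 in AT1 cells, against 1127, 448 and 389 in endothelial cells and 1107, 867 and 1117 in mural cells (adjusted p = 7.05e-08 and 2.65e-08). Both genes were thus above 0 in no AT1 cell.

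Among the receptors, the laminin receptor Bcam was at 1151, 1397 and 1346 adjusted CPM in AT1 cells and 503, 876 and 792 in endothelial cells, against 14.3, 2.02 and 0 in fibroblasts (limma adjusted p = 3.7e-05 and 0.000135). The laminin-binding integrin chain Itga6 was at 465, 447 and 434 in endothelial cells, against at most 10.1 in fibroblasts and mural cells (adjusted p = 1.03e-07 and 1.32e-07). The collagen-binding integrin chain Itga1 was at 692, 860 and 954 in endothelial cells and listed at 0 in AT1 cells (adjusted p = 4.15e-08), and was lower in fibroblasts than in mural cells (log2 difference -2.86, SE 0.34, adjusted p = 9.41e-05). Endothelial cells thus stood high for all 3 receptors.

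The gelatinase Mmp2 was a fibroblast gene (1029, 853 and 576 adjusted CPM), above mural cells (log2 difference 4.30, SE 0.35, limma adjusted p = 4.5e-06) and above AT1 cells, where it was listed at 0 (adjusted p = 4.87e-08). The linker Fbln1 was at 455, 827 and 460 in fibroblasts, listed at 0 in endothelial cells (adjusted p = 5.99e-08) and lower in mural cells (difference 3.99, SE 0.32, adjusted p = 4.4e-06). Its relative Fbln2 was at 300.1, 147 and 172 in endothelial cells and at 10.1, 0 and 0 in mural cells (adjusted p = 6.24e-06). The basement membrane linker Tinagl1 was lower in fibroblasts than in mural cells (-3.10, SE 0.32, adjusted p = 2.67e-05). Col4a5, given above, was called higher in mural than in endothelial cells (adjusted p = 5.19e-07), and Lamb3 higher in AT1 cells than in each other class (largest adjusted p = 1.27e-08).

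Lama3 was listed at 0 in fibroblasts and mural cells, and other alpha chains were found there. The alpha chain Lama2 was in fibroblasts (348, 358 and 309 adjusted CPM). The vascular chain Lama4 was in fibroblasts (305, 344 and 328), mural cells (339, 303 and 250) and endothelial cells (105, 87.6 and 55.6). Lama5 was in AT1 cells (156, 105 and 119) and endothelial cells (193, 135 and 136). The beta chain Lamb1 was in fibroblasts (348, 404 and 416) and listed at 0 in AT1 cells. The collagen IV chain Col4a6 was highest in mural cells (142, 115 and 138) and at 15.6, 47.1 and 40.6 in AT1 cells.

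Between libraries, this list also lay lower in the AT1 cells of CONV, with a median ratio of -0.64 to CONV AsiDNA and -0.58 to FLASH. That gate also had a lower AT1 marker sum (25490, against 41902 in CONV AsiDNA and 41438 in FLASH). Its AT2 marker sum (879, against 5.23 and 28.1) and ribosomal protein sum (51576, against 10091 and 16904) were higher. The list is given for all gated AT1 cells, and the part of these differences in it was not tested. Of 25 genes measured there, 0 were past 2-fold higher and 10 lower in CONV than in CONV AsiDNA, and 1 higher and 8 lower than in FLASH (40.0% and 36.0% past 2-fold, beside 20.1% and 20.1% of all genes). Over all 5073 genes, 513 were higher and 507 lower in CONV than in CONV AsiDNA, and 605 and 413 than in FLASH. The farthest was the collagen lysyl hydroxylase Plod2 (70.0, 377 and 403 adjusted CPM, ratios -2.27 and -2.37). The prolyl hydroxylase P4ha1 was next against FLASH (81.7 in CONV and 322 in FLASH, -1.86). The collagen chaperone Serpinh1 was at 77.8 in CONV and 251 in CONV AsiDNA (-1.57). The single gene higher in CONV than in FLASH was the cross-linking oxidase Lox (38.9 against 12.5, 1.12). In CONV AsiDNA over FLASH 1 was higher, the hydroxylase Plod3 (94.2 against 40.6, 1.04), and 0 lower (4.0%, beside 13.8%).

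In endothelial cells 4 of 39 genes were past 2-fold higher and 2 lower in CONV than in CONV AsiDNA, 8 and 2 than in FLASH, and 3 and 0 in CONV AsiDNA over FLASH (15.4%, 25.6% and 7.7%, beside 7.21%, 7.58% and 1.27% of all genes). These counts and the levels that follow include the cluster mostly of CONV cells (128, 22 and 1 gated endothelial cells). The part of that cluster in them was not tested. Sparcl1 was farthest, at 1288, 165 and 51.7 adjusted CPM (2.89, 4.39 and 1.50), and Lamb1 was at 73.7, 34.2 and 5.00 (2.48 for CONV over FLASH). The laminin-binding integrin Itga3 (153, 342 and 325) and, against FLASH, the inhibitor Timp2 (408 and 845) were lower in CONV. Nephronectin (Npnt, 34.7 against 7.55 in CONV AsiDNA) and the oxidase Loxl2 (8.11 against 28.4) completed the named genes.

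In fibroblasts 3 of 37 genes were higher and 2 lower in CONV than in CONV AsiDNA, 6 and 1 than in FLASH, and 3 and 0 in CONV AsiDNA over FLASH (13.5%, 18.9% and 8.1%, beside 10.7%, 11.8% and 5.41%). The alpha chain Lama5 stood at 86.0, 14.2 and 7.25 adjusted CPM (1.99 and 2.48). The elastic fibre and basement membrane linker Fbln2 stood at 258, 160 and 46.4 (2.25 for CONV over FLASH and 1.59 for CONV AsiDNA over FLASH). The collagen receptor Ddr1 (89.6 against 16.2 in CONV AsiDNA) was higher in CONV, and Col4a6 (3.58, 22.2 and 20.3) and Serpinh1 (459 and 1066 in CONV and CONV AsiDNA) were lower. Col15a1, a basement membrane collagen of microvessels, was at 89.0 in CONV AsiDNA and 26.1 in FLASH.

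In mural cells 3 of 33 genes were higher and 4 lower in CONV than in CONV AsiDNA, 4 and 2 than in FLASH, and 3 and 0 in CONV AsiDNA over FLASH (21.2%, 18.2% and 9.1%, beside 13.0%, 16.3% and 9.26%). Lama5 again was highest in CONV (136, 49.8 and 26.6 adjusted CPM, 1.29 and 2.00), as was Lamb1 against CONV AsiDNA (50.5 and 19.2). The laminin receptor Bcam was at 232 and 161 in CONV and CONV AsiDNA, above 0 in 29 and 28 cells, and was listed at 0 in FLASH. The part of the adjustment before deposit in this 0 was not tested. The collagen IV cross-linking peroxidasin Pxdn (25.3, 65.2 and 69.2), P4ha1 (45.5 against 107 in CONV AsiDNA) and Mmp2 (15.2 against 42.6 in FLASH) were lower in CONV. Plod3 was at 53.7 in CONV AsiDNA and 5.32 in FLASH.

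The genes whose level over 27 class and library sums was most like each member were read from 17558 genes as a description. These points share libraries and the make-up of their gates. Col4a1 was most like Col4a2 (r = 0.98), Dlc1 (0.96) and Sparc (0.95), and Col4a2 was most like Col4a1, Sparc (0.93) and Phactr2 (0.93). Col4a3 was most like Lama3 (0.97), Col4a4 (0.95) and Scel (0.95), Col4a4 like Pard6b and Col4a3 (both 0.95), and Lama3 like Flrt3 (0.98), Col4a3 and the gate marker Rtkn2 (0.95). Lamb2 was most like Cavin1 (0.94), Igfbp7 and Ehd2, Lamc1 like Calu (0.97), Fkbp9 and Poglut3, and Nid1 like Hoxa5 (0.98), Tbx2 (0.97) and Mxra7 (0.97). Hspg2 was most like Htra1 (0.94), Igfbp7 (0.94) and Sparc (0.93), and Sparc like Igfbp7 (0.97), Ehd2 (0.96) and Col4a1. The least alike pair of members was Col4a3 and Nid1 (r = -0.32).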

How the data were processed

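Lung suspensions of 3 mice were sequenced by the authors with the 10x 3′ method. Cell Ranger 6.0.0 and mm10 are named in the submitters' processing notes. The authors deposited 1 table per library of natural log values, each ln(1 + a whole number) within 1e-06. The numbers had been adjusted by a step not given in the sources used here, so neither count models nor counting intervals were used. The members and lists were chosen with earlier results of these data known.

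Cells were gated on at least 4 of 8 markers (10 for mural cells), 2 more than from any other list. No doublet caller was run, and a gated cell could hold markers of other lists as long as its own led by 2. Sub-lists needed 2 markers. Class sums scaled to 1000000, with a prior of 10, were compared as log2 ratios between libraries and with limma 3.58.1 (R 4.3.3, Benjamini-Hochberg adjustment, trend, library term, at least 20 adjusted counts and 10 cells) between classes. Clusters were made with scanpy 1.11.5 (2000 variable genes, 30 components, 15 neighbours, resolution 1). Shares have exact Clopper-Pearson 95% intervals. Named genes were all members, for each the 3 genes most like it, and, of the pathway list, the 2 farthest called, or past 2-fold with at least 10 cells above 0, in each direction, of which 1 is not reported here. On simulated data, 92% of 200 genes changed 4-fold were called by limma for AT1 against endothelial cells with 1 false call among 12221 genes, and 99% passed 2-fold for endothelial CONV over FLASH with 0 false among 9524. The limma simulation used a fixed spread between class sums and no library effect, and changed only genes with high sums. Its figures describe those settings and were not set against the spread of these data. Alternatives changed the gates, the prior, the minimum, the scaling, the library term, and the libraries or cells used. A further 12 value columns, in 4 tables whose sample names match no sample used here, were left out, and 3 of those tables hold the authors' own comparisons.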

Additional observations from a re-analysis of the deposited data

Results flagged for a closer look

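The perlecan gene Hspg2 moved in opposite directions between the same pair of libraries in AT1 and endothelial cells. Its log2 ratio of CONV over FLASH was -1.24 in AT1 cells, from 214 to 518 adjusted CPM, and 2.36 in endothelial cells, from 327 to 55.6 adjusted CPM. Both are past 2-fold. With 1 mouse per condition the difference between the classes was not tested. In the AT1 cells with no AT2 marker the ratio was -0.81, and in endothelial cells outside the cluster that is mostly of CONV cells it was 0.93, so the opposite directions remained and both values lay under 2-fold.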

How the results depend on the processing

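No paired analysis was possible because, between conditions, the labels give no replicate numbers and each condition has 1 mouse. Between classes, the library term sets the 4 classes of each mouse side by side. No called difference and no ratio past 2-fold changed sign. Sign changes of smaller values came to 13 among the 780 differences and 38 among the 1059 ratios of all alternatives, among them Col4a2 (-0.16 to 0.19) and Lamb2 (-0.12 to 0.24) for AT1 minus endothelial and Sparc for endothelial minus mural (0.28 to -0.13) without CONV, and Hspg2 for endothelial minus fibroblast (-0.41 to 0.07) without FLASH. The number of members past 2-fold in AT1 cells, 1 for CONV over CONV AsiDNA, was 4 with classes from clusters, 2 with the mean over cells, 0 with a prior of 50, 2 without cells carrying an AT2 marker and 2 without those carrying an AT2 marker or Sftpd, and, 1 for CONV over FLASH, was 2 with clusters, 2 with scaling by the median ratio and 0 without cells carrying an AT2 marker. In endothelial cells it went from 1 to 2 for CONV over CONV AsiDNA with a prior of 1, and to 0 for CONV over CONV AsiDNA and from 2 to 0 for CONV over FLASH without the cluster mostly of CONV cells. In mural cells it went from 0 to 1 for CONV over CONV AsiDNA where every other list had at most 1 marker, which left 6, 10 and 11 cells, and for CONV over FLASH to 2 there, 2 with clusters, 1 with a prior of 1 and 1 with scaling by the median ratio. Leaving out each library in turn gave 2 to 4 members called for endothelial cells against fibroblasts and 1 to 4 for fibroblasts against mural cells, where 4 were called with all libraries. For AT1 cells it gave 4 to 6 against endothelial cells, 5 to 7 against fibroblasts and 6 to 8 against mural cells. The causes were not tested. Of 780 log2 differences between classes under the alternatives, 742 kept their side of the threshold, 31 lost and 7 gained a call, and of 1059 log2 ratios 1024 kept their side, 9 lost and 26 gained. Of 600 levels 24 moved by more than the spread over libraries, and of 120 shares 80 moved outside their interval on thinning. With a prior of 50 the calls over all genes fell from 3364 to 1539 for AT1 against endothelial cells and from 1383 to 739 for fibroblasts against mural cells, and for the latter they were 752 without CONV AsiDNA and 849 without FLASH. The genes past 2-fold for CONV over CONV AsiDNA fell from 1020 to 332 in AT1 cells with a prior of 50. In endothelial cells they went from 745 to 215 with a prior of 50 and to 1805 with a prior of 1. Scaling by the median ratio moved the share of higher among all genes past 2-fold from 59.0% to 45.7% in AT1 cells for CONV AsiDNA over FLASH and from 68.5% to 55.7% in mural cells for CONV over FLASH. The limits are 1 mouse per condition, 47 to 99 cells a library in the AT1 and mural gates, values adjusted before deposit by an unknown step, and the absence of pericytes and of unirradiated lungs from what was analysed. The alternatives that drop cells, and the sub-lists, were chosen after seeing the data.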
